A study of Homo sapiens with 6 samples.

Results

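The auxiliary subunits of voltage-gated calcium channels were examined in WM164 cells, an established human melanoma cell line. The group consists of the 4 alpha2delta genes (CACNA2D1 to CACNA2D4) and the 4 beta genes (CACNB1 to CACNB4), which make up 8 of the 58870 genes in the count table and were found there by their symbols. RNA sequencing was available for 6 libraries, 3 from cells overexpressing GFP as the control and 3 labelled as overexpressing T-MGM, a construct that joins MAFG and MITF by a flexible linker into a tethered dimer. Per the study's methods the constructs were delivered by lentivirus under an EF1α promoter with blasticidin selection, and the cells carry their own MAFG and MITF genes in both groups; whether each line was a pool or a clone is not stated. Nothing in the labels says that the libraries of a group came from separate cultures, so p-values measure only the spread between these libraries, which may be technical. The family was selected on the measured change of CACNA2D1 between these same libraries, the largest rise in T-MGM, so the values of its members in this contrast are given as a description and without a test.

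Voltage-gated calcium channels open when the membrane depolarizes and let calcium into the cell. The pore is formed by an alpha1 protein, and channels of the high-voltage-activated classes also carry an alpha2delta and a beta subunit. The alpha2delta proteins are made as a single precursor that is cut into an extracellular alpha2 and a membrane-anchored delta part, and they raise the amount of channel at the cell surface. The beta proteins are cytosolic, bind the pore protein between its first and second domains, and aid its folding, trafficking and gating. T-type (low-voltage-activated) pores do not require either subunit.

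CACNA2D1, the alpha2delta gene that encodes a binding site of gabapentin and pregabalin, lies on the reverse strand of chromosome 7 from 81946444 to 82443956 (GRCh38). CACNA2D3 is shown beside it because its transcript was not counted in any library. The 250 bases before their RefSeq start sites (GRCh38.p14) lie at chr7:82443957-82444206 on the reverse strand for CACNA2D1 and at chr3:54122302-54122551 on the forward strand for CACNA2D3. They are printed 5′ to 3′ in lower case with each CG dinucleotide in capitals:

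CACNA2D1: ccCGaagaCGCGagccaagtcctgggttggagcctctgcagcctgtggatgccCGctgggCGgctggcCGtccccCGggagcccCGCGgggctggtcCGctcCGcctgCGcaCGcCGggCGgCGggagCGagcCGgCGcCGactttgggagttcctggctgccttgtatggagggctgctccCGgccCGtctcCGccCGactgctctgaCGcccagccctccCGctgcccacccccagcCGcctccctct
CACNA2D3: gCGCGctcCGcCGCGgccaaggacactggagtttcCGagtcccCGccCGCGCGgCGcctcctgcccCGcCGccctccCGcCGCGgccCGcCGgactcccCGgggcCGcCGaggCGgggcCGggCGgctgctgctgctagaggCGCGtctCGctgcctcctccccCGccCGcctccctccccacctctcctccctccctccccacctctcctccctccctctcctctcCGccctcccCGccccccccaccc

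The CACNA2D1 sequence holds 27 CG dinucleotides and the CACNA2D3 sequence 31, against a median of 11 over 35116 promoter windows. At least as many were present in 17.7% and 10.9% of all windows, respectively. The GC content of the windows of 300 bases, which also include 50 bases after the start, was 72.3% for CACNA2D1 and 79.0% for CACNA2D3. Both promoters are thus CG-rich, although one gene was well counted in T-MGM and the other gave no count.

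Letters known from MITF sites, the E-box CACGTG and its variant CATGTG, were searched, as were letters known from sites of small MAF proteins and their partners, namely the short MAF motif TGCTGA, the AP-1 site TGACTCA and the antioxidant response element core TGACNNNGC. The search covered both strands of the windows of 300 bases. TGACTCA and TGACNNNGC can overlap TGCTGA within a longer MAF recognition element. Of the 17 windows that RefSeq gives for 7 of the members, 3 held a match, namely CATGTG in one window of CACNB2, TGCTGA in that of CACNB1 and TGACNNNGC in one window of CACNB4. None of these letters was found in the windows of CACNA2D1 and CACNA2D3. Among all 35116 windows, CACGTG was present in 7.3%, CATGTG in 11.1%, TGCTGA in 17.3%, TGACTCA in 4.9% and TGACNNNGC in 13.3%.

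Total counts ranged from 35057239 to 38738065 in GFP and from 44577774 to 59250663 in T-MGM, so that 3 counts, taken as the floor, correspond to 0.0506 to 0.0856 CPM (counts scaled to library total). Normalized counts are counts divided by the median-of-ratios size factor of the library. Of 7 melanocytic markers, 6 were abundant in every library and TYRP1 had at most 6 counts; their summed TPM (a level per transcript length, scaled to the same total in each library) was 964 to 977 in GFP, against 831 to 865 in T-MGM. Of the 6 tested, 3 passed upwards and 3 downwards, with DCT, an enzyme of melanin synthesis, at a log2 fold change of -2.49. Leukocyte, keratinocyte and endothelial lists (10 genes in all) summed to at most 0.34 TPM each in any library. In the muscle list MYH2 was at 0 throughout and the sum of 0.60 to 0.86 TPM came almost wholly from ACTN2. The neuronal list summed to 16.6 to 17.5 TPM in GFP and 9.36 to 11.2 TPM in T-MGM, nearly all of it GAD1, and 2 of its 3 genes passed the test downwards; its part in the results below was not tested. The log2 fold change was -0.06 for MAFG (SE 0.04; adjusted p by DESeq2 0.236) and 0.08 for MITF (SE 0.02; adjusted p by DESeq2 4.8e-07), so the construct genes give no clear check of the labels, on which the directions rest. In bulk RNA, fewer cells that express a gene and less RNA per cell cannot be told apart.

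Of the 8 members, 7 had a count in some library, 4 reached a mean normalized count of 10, and 5 were given an adjusted p by DESeq2 after its filter on low values. One member, CACNA2D1, met the call rule of an adjusted p at or under 0.05 with a change over 2-fold, which 4.63% of the 19135 genes tested met in either direction and 3.26% met upwards. On normalized counts the groups did not overlap for CACNA2D1 alone, where they did not overlap for 46.8% of all genes tested. As the contrast chose the family, nothing is read from these counts.

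CACNA2D1 had 2, 4 and 7 counts in GFP replicates 1 to 3 and 739, 745 and 1041 counts in T-MGM replicates 1 to 3. On the normalized scale these were 2.40, 4.33 and 7.99 in GFP against 674, 727 and 768 in T-MGM. The gene was near the floor in every GFP library and well above it in every T-MGM library, with no overlap between groups. The means were 4.91 ± 2.84 and 723 ± 47.1 normalized counts (SD, n = 3 per group), which is a log2 change of 7.20 (SE 0.41), or 147-fold with 95% limits of 83.9 to 256. These limits do not allow for the choice of the gene by this same change and are descriptive only. The fold depended on which GFP library was counted: without GFP replicate 3 it was 7.73 and without GFP replicate 1 it was 6.89 on the log2 scale. It also depended on the scale. In TPM the rise was smaller, from 0.0867 ± 0.0862 to 3.44 ± 1.14 (SD, n = 3 per group). Fits by limma gave a log2 change of 2.0 on log2(TPM + 1) and 4.30 on log2(TPM + 0.1). ARPIN came next at 7.04 when called genes were ranked from a mean of 100 normalized counts upwards.

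**Figure D1:**
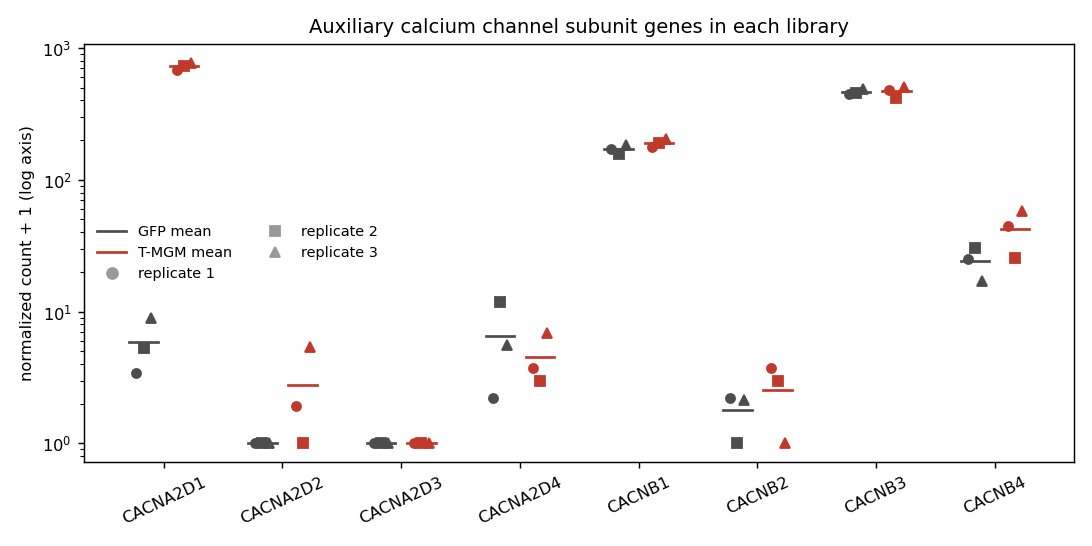
Normalized count plus 1 (log axis) of the 8 subunit genes in each library, with GFP in grey and T-MGM in red, symbols for replicates and bars for group means. CACNA2D1 moved from 2.40 to 7.99 up to 674 to 768, whereas the GFP and T-MGM libraries overlapped for the other 7 genes.

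The remaining alpha2delta genes were barely detected in either group. CACNA2D2, which is prominent in cerebellar Purkinje cells, had 0 counts in each GFP library and 1, 0 and 6 counts in the T-MGM libraries, and no fold is given because both groups were at or under the floor on average. CACNA2D3 had 0 counts in all 6 libraries, which at the depth of each library allows up to 3 counts. CACNA2D4, known for its role in photoreceptors, had 1, 10 and 4 counts in GFP, against 3, 2 and 8 counts in T-MGM, a log2 fold change of -0.64 (SE 1.07). That value turned to 0.30 without GFP replicate 2, so CACNA2D4 has no stable direction here, and with at most 10 counts in a library a modest difference could not be detected.

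The beta subunit genes had the same order by mean TPM in both groups. CACNB3, a beta gene expressed in many tissues (chromosome 12, 48813794 to 48828941), had 450, 453 and 489 normalized counts in GFP, against 475, 419 and 508 in T-MGM, and the groups overlapped. Its means were 464 ± 21.8 and 467 ± 45.5 (SD, n = 3 per group), which is a log2 change of 0.02 with 95% limits of -0.17 to 0.20. CACNB1, the beta subunit of the skeletal muscle channel and also expressed elsewhere (chromosome 17, 39173453 to 39197702), had 171, 156 and 182 normalized counts in GFP, against 175, 189 and 201 in T-MGM, again with overlap. Its means were 170 ± 12.9 and 189 ± 13.2 (SD, n = 3 per group), which is a log2 change of 0.16 with 95% limits of -0.13 to 0.45. In TPM both lay lower in T-MGM, CACNB1 at 1.61 ± 0.29 and 1.15 ± 0.20 and CACNB3 at 6.32 ± 0.94 and 5.69 ± 0.85 (SD, n = 3 per group), where the median of genes averaging 50 or more normalized counts was -0.13 on the log2(TPM + 1) scale. The direction of neither gene therefore holds across scalings.

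CACNB4, a beta subunit best known from the brain (chromosome 2, 151832771 to 152099167), had 24.0, 29.2 and 16.0 normalized counts in GFP, against 43.8, 24.4 and 56.8 in T-MGM. The second T-MGM library lay within the range of the GFP libraries, and the other two lay above it. The means were 23.1 ± 6.67 and 41.7 ± 16.3 (SD, n = 3 per group), which is a log2 change of 0.86 (SE 0.40) with 95% limits of 0.08 to 1.65, and the gene was not called. CACNB4 shares 2168 exonic bases on the same strand with the read-through gene AC068547.1, which had 356 to 513 counts in GFP, against 360 to 492 in T-MGM and a log2 fold change of -0.39 (SE 0.11; adjusted p by DESeq2 0.00224). Reads from the shared part cannot be told apart, so the CACNB4 count is uncertain. CACNB2, the main beta subunit of the heart, had 1, 0 and 1 counts in GFP, against 3, 2 and 0 in T-MGM, all at or under the floor, and no fold is given. On its opposite strand AL450384.2 shares 742 exonic bases with it and had 4 to 34 counts. Z84492.1, which shares 606 bases with CACNA2D2 on the opposite strand, had 0 to 11 counts. CACNA2D1 is overlapped only by the opposite-strand AC006145.1, which had 0 counts in each library and shares 0 exonic bases with it. No overlapping gene was annotated for CACNB3, and the overlapping gene of CACNB1 was at 0 counts.

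Levels of different genes were compared per transcript length. In GFP the order by mean TPM was CACNB3 (6.32), CACNB1 (1.61), CACNB4 (0.14), CACNA2D1 (0.0867), CACNA2D4 (0.0633) and CACNB2 (0.00667), with CACNA2D2 and CACNA2D3 listed at 0. The ranges of CACNB3 and CACNB1 were separate from each other and from all others, whereas those of CACNB4, CACNA2D1 and CACNA2D4 overlapped. In T-MGM CACNA2D1 moved to second place at 3.44 ± 1.14 TPM (SD, n = 3), below CACNB3 and above CACNB1, and its range of 2.32 to 4.59 overlapped neither. The position of CACNA2D1 against CACNB3 depended on the length used. With CPM per kilobase of annotated exon, CACNA2D1 was at 1.69, 1.82 and 1.92 in the T-MGM libraries and CACNB3 at 1.53, 1.35 and 1.63, so that the order was reversed. CACNA2D1 also varied more in TPM (2.32, 3.40 and 4.59 in T-MGM replicates 1 to 3, a 1.98-fold range) than in normalized counts (a 1.14-fold range).

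Summed by class, alpha2delta transcripts were scarce in GFP and approached the beta transcripts in T-MGM. The T-MGM sum was nearly all CACNA2D1, whose change chose the family. The rise of the sum and the fall of the ratio below therefore follow from the selection and are only described. Summed alpha2delta TPM was 0.02, 0.19 and 0.24 in GFP, against 2.38, 3.41 and 4.65 in T-MGM, without overlap. Of this sum CACNA2D1 held 50%, 36.8% and 75.0% in the GFP libraries, where the remainder was CACNA2D4, and 97.5%, 99.7% and 98.7% in the T-MGM libraries. Summed beta TPM was 6.75, 8.60 and 8.89 in GFP, against 6.71, 6.43 and 8.03 in T-MGM, with overlap. CACNB3 held 78.2% ± 0.97 of the beta sum in GFP and 80.5% ± 2.68 in T-MGM, and CACNB1 held 19.9% ± 1.3 and 16.5% ± 3.37 (SD, n = 3 per group). There were 37.0 to 338 beta transcripts per alpha2delta transcript in GFP and 1.73 to 2.82 in T-MGM. With CPM per kilobase of exon, a measure added after the data were seen, the ratio was 44.8 to 208 in GFP and 1.08 to 1.25 in T-MGM, so the T-MGM ratio depended on the length used. These ratios count RNA and not protein, and they include the GFP libraries in which alpha2delta rested on a few reads.

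**Figure D2:**
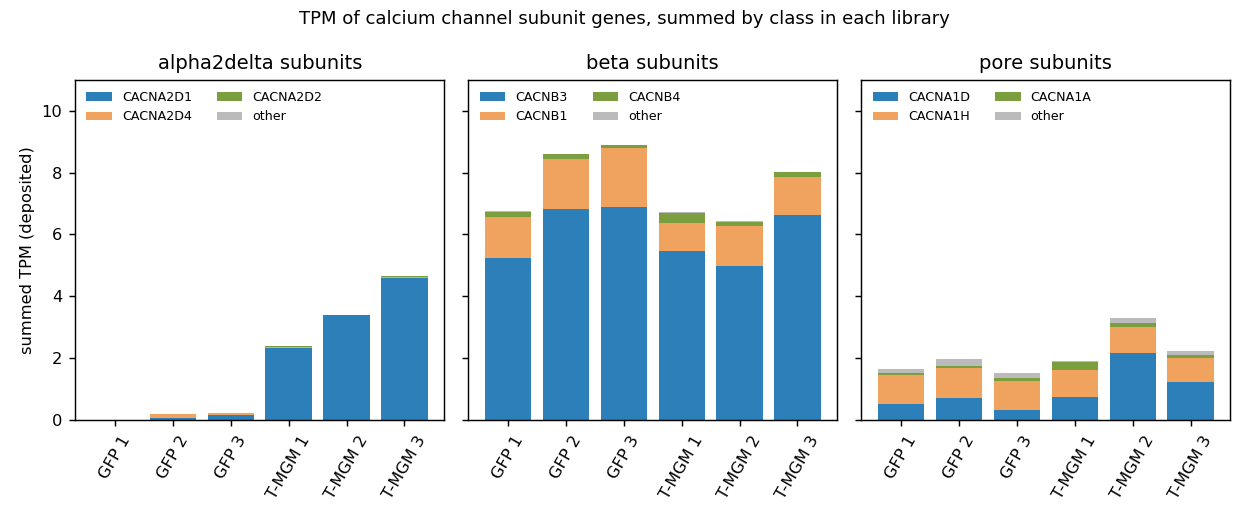
Summed TPM of alpha2delta, beta and pore genes in each library (bars, linear axis from 0), split by the 3 leading genes of each class and all others. The alpha2delta sum rose from at most 0.24 in GFP to at least 2.38 in T-MGM, while the beta sums overlapped between 6.43 and 8.89. In T-MGM the alpha2delta sum was nearly all CACNA2D1, on whose change the family was selected.

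Pore genes were then compared, since auxiliary subunits act on them. Of 10 pore genes, 8 were given an adjusted p, 1 passed 0.05 upwards and 7 did not pass (median log2 fold change 0.14, where all tested genes had a median of -0.0027). The share of all tested genes at or under an adjusted p of 0.05 was 38.4%. The one that passed was CACNA1D, which encodes the Cav1.3 pore of L-type channels, a high-voltage-activated class. CACNA1D had 36, 72 and 47 counts in GFP, against 240, 284 and 341 in T-MGM, or 58.3 ± 17.8 and 249.2 ± 29.1 normalized counts (SD, n = 3 per group), without overlap. Its log2 fold change was 2.09 (SE 0.20; adjusted p by DESeq2 3.58e-25). In TPM the increase was smaller, from 0.51 ± 0.19 to 1.39 ± 0.72 (SD, n = 3 per group), and it passed with a pseudocount of 0.1 (limma adjusted p of 0.0483) but not with 1 (limma adjusted p of 0.0555, or 0.189 without a filter on low TPM).

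CACNA1H, the T-type Cav3.2 pore, was the pore gene with the most counts in GFP and is named for that reason after its values were seen. It had 355 ± 16.1 normalized counts in GFP, against 350 ± 23.6 in T-MGM (SD, n = 3 per group), which is a log2 change of -0.02 with 95% limits of -0.23 to 0.18 (adjusted p by DESeq2 0.897). Summed over the 7 high-voltage-activated pore genes, TPM was 0.51 to 0.94 in GFP and 1.04 to 2.37 in T-MGM. CACNA1D held 71.1% ± 7.29 of this sum in GFP and 84.3% ± 9.95 in T-MGM (SD, n = 3 per group). The sum is therefore mostly that gene and no separate result for the class. Over the 3 T-type genes the sum was 0.99 to 1.04 in GFP and 0.81 to 0.93 in T-MGM. In CPM per kilobase of exon, also added after the data were seen, the high-voltage-activated sums were 0.0842 to 0.111 and 0.281 to 0.367, again without overlap. There CACNA1D held 75.17% in GFP and 91.55% in T-MGM on average. The T-type sums on that scale, 0.979 to 1.08 in GFP and 0.902 to 1.05 in T-MGM, overlapped, unlike those in TPM, and no sum was tested. Of the 8 gamma subunit genes, another kind of auxiliary subunit, 6 had at most 3 counts in every library and only CACNG8, named after its values were seen, was given an adjusted p (log2 fold change -0.66, adjusted p by DESeq2 0.696).

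Of 8 regulators that bind beta subunits or the channel, 3 had at most 3 counts in every library. Of the 8, 4 were given an adjusted p and 1 passed, GEM, a small GTPase of the RGK family that binds beta subunits and reduces calcium current. GEM had 1382 ± 136 normalized counts in GFP, against 1553 ± 40.2 in T-MGM (SD, n = 3 per group), which is a log2 change of 0.17 (SE 0.06; adjusted p by DESeq2 0.0123). GEM no longer passed without GFP replicate 2 (0.09, adjusted p by DESeq2 0.237) or without T-MGM replicate 3 (0.15, adjusted p by DESeq2 0.0856). Nor did it pass with total-count scaling (0.12, adjusted p by DESeq2 0.108) or in any of the 3 fits on TPM (0.06 to 0.07, limma adjusted p of 0.487 to 0.601). CBARP, a membrane protein that binds beta subunits, had 984 ± 41.0 and 939 ± 41.3 normalized counts (SD, n = 3 per group) and a log2 fold change of -0.07 (adjusted p by DESeq2 0.451). After correction for GC content and length it was -0.26 and passed downwards (adjusted p by DESeq2 0.000125).

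Proteins that meet alpha2delta outside the pore were the last list, with CACHD1 as a relative of the alpha2delta family, LRP1 as an endocytic receptor that binds alpha2delta-1, and thrombospondins as extracellular ligands. Of 7 genes, 6 were given an adjusted p and 2 passed, both upwards (median log2 fold change 0.44). LRP1 increased from 2913 ± 203 to 4389 ± 130 normalized counts (SD, n = 3 per group), which is a log2 change of 0.59 (SE 0.06; adjusted p by DESeq2 1.4e-20) that was past the threshold in all 16 alternatives. THBS3 had 65.9 ± 19.6 and 123 ± 3.34 normalized counts (SD, n = 3 per group), which is a log2 change of 0.90 (SE 0.23; adjusted p by DESeq2 0.000262), and did not pass in TPM (0.21 to 0.42, limma adjusted p of 0.286 to 0.568). CACHD1 had 1302 ± 50.2 and 1242 ± 57.5 normalized counts (SD, n = 3 per group), which is a log2 change of -0.07 with 95% limits of -0.18 to 0.04 (adjusted p by DESeq2 0.391). Across the 33 genes of these lists 19 were tested, 4 passed upwards and 0 downwards with DESeq2. Of all genes tested with DESeq2, 19.2% passed in each direction. At an unadjusted p under 0.05 the numbers for these lists were also 4 and 0, and the share over all genes was not computed. The edgeR fit passed 4 and 0 of the 10 listed genes it tested. Over all genes it passed 7248 of 15648 in either direction.

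**Figure D3:**
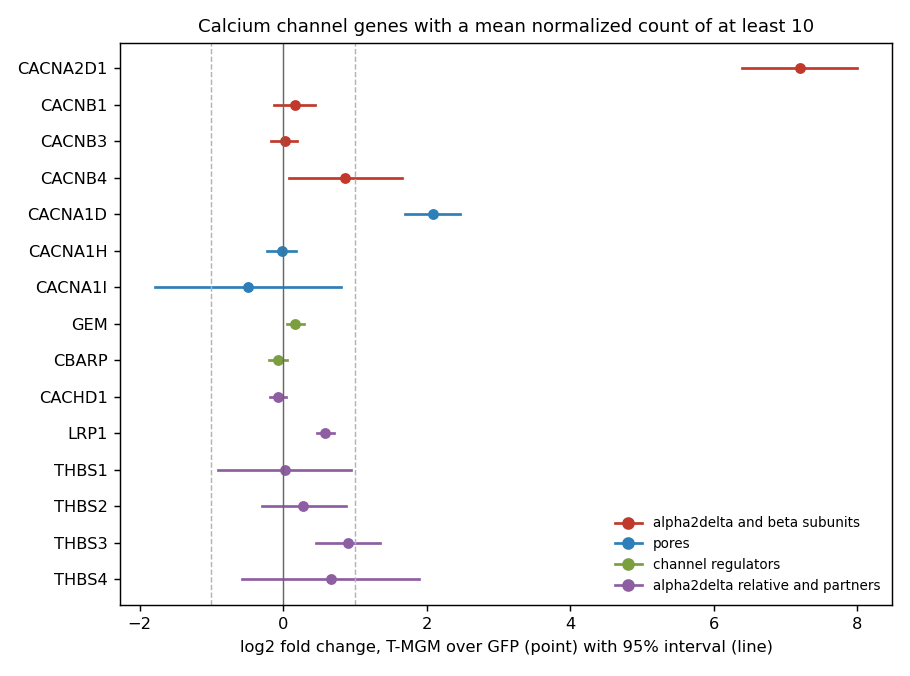
Log2 fold change of T-MGM over GFP (points) with 95% limits (lines) for the auxiliary subunit genes and the other calcium channel genes that averaged 10 or more normalized counts; dashed lines mark a 2-fold change. CACNA2D1, on whose change the family was selected, is at 7.20, CACNA1D is at 2.09, and CACNB1, CACNB3 and CACNB4 are at 0.16, 0.02 and 0.86.

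The position of the members was not used to choose them. Within 2 Mb of CACNA2D1, 4 protein-coding genes averaged 50 or more normalized counts, and their log2 fold changes ran from 0.43 to 3.08 with a median of 0.78. The largest was that of GNAI1, an inhibitory G protein subunit, at 33.9 ± 13.7 and 283 ± 55.0 normalized counts (SD, n = 3 per group; adjusted p by DESeq2 2.95e-39). SEMA3A, a secreted axon guidance factor, rose by 1.08 on the log2 scale (SE 0.03; adjusted p by DESeq2 2.75e-223). PCLO, at 0.31 Mb the nearest, and SEMA3C were at 0.49 and 0.43, both under 2-fold.

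CACNA2D3 and CACNA1D are neighbours on chromosome 3, 0.309 Mb apart. The 29 measured genes near CACNA2D3 had a median log2 fold change of 0.22, with WNT5A, a non-canonical WNT ligand, at -2.50 (SE 0.12; adjusted p by DESeq2 1.87e-100) and CACNA1D at the other end. CACNA2D3 itself had no count although genes on both sides were transcribed. Around CACNA2D2, 80 genes had a median of 0.40, led by C3orf18 (2.55) and SEMA3B (2.46). Around CACNB4, the 10 measured genes, which include the overlapping AC068547.1, had a median of -0.31, and 7 passed the test downwards, RIF1 at -0.44 among them, while 3 did not pass. Of all genes tested, 19.2% passed in each direction. That share also covers genes that are not protein-coding or averaged under 50 normalized counts. It is therefore no like background for these neighbours, and the matching share was not computed. Near CACNB2 the median of 9 genes was -0.28, with PTER at -0.74 and VIM at 0.45. Medians were 0.03 near CACNB1 and CACNB3 and -0.02 near CACNA2D4, where the widest values were those of RAPGEFL1 (-0.58), RARA (0.38), DNAJC22 (1.02), SLC48A1 (0.80), B4GALNT3 (1.38) and PARP11 (0.72). Genes that passed upwards numbered 4 near CACNA2D1, 70 near CACNA2D2 and 21 near CACNA2D3, against 0, 1 and 4 downwards. They numbered 5 near CACNA2D4, 8 near CACNB1, 1 near CACNB2 and 13 near CACNB3, against 5, 7, 5 and 10 downwards. The windows of CACNA2D2 and CACNA2D3 share some genes, so their counts are not separate. ALAS1, which passed downwards, is counted in both.

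**Figure D4:**
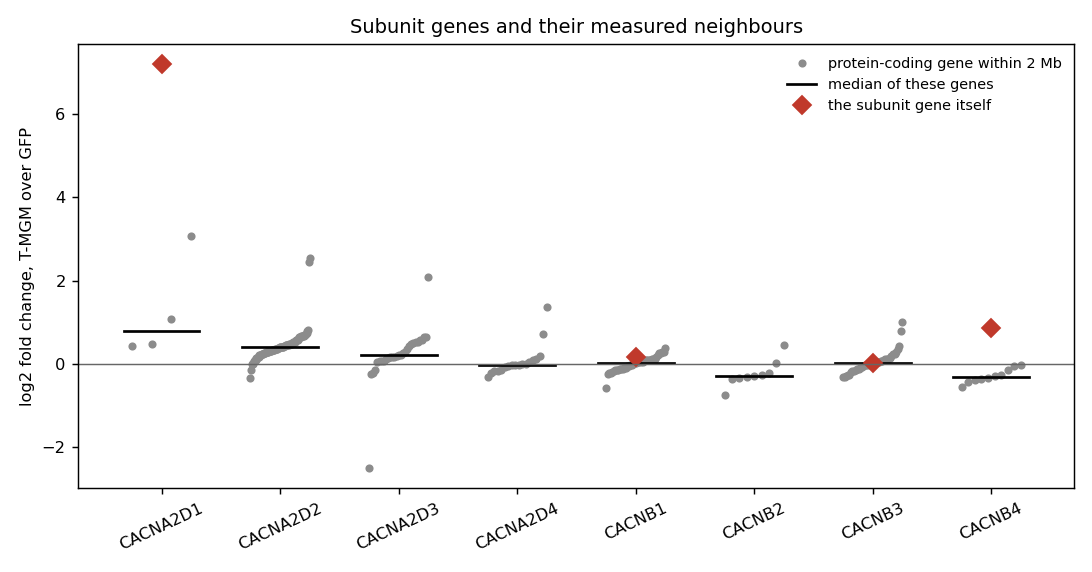
Log2 fold change of T-MGM over GFP for protein-coding genes within 2 Mb of each subunit gene (grey points, ordered by value), their median (black bar) and the subunit gene itself where it averaged 10 or more normalized counts (red diamond). The neighbours of CACNA2D1 run from 0.43 to 3.08; the place of CACNA2D1 above them at 7.20 follows from its selection as the largest rise. CACNB1 and CACNB3 lie among their neighbours and CACNB4 is at 0.86.

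The genes whose pattern over the 6 libraries was nearest to that of CACNA2D1 were sought among 12651 genes averaging 50 or more normalized counts, by the Euclidean distance of mean-centred log2(normalized count + 1). They were OPRD1, the delta opioid receptor, at a distance of 1.76, followed by ARPIN, an inhibitor of the ARP2/3 complex whose count is uncertain because a read-through gene shares its locus, at 1.83, the glycosyltransferase gene GALNT18 at 2.41, the cancer-testis antigen gene MAGEA10 at 2.54 and the ring finger gene LONRF3 at 2.63. GFP means were between 2.22 and 10.2 normalized counts and T-MGM means between 102 and 470, so that these genes too were near the floor in GFP. OPRD1 had 7.20, 6.50 and 9.14 normalized counts in GFP, against 510, 440 and 460 in T-MGM. As each pattern is mainly a single step between groups, the likeness describes only its size.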

How the data were processed

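Counts and TPM values of 6 WM164 libraries were used, with groups and replicate numbers from the sample titles. The deposited counts are whole numbers; per the study's methods the authors obtained them by cutadapt trimming, STAR alignment on GRCh38 and featureCounts on unique alignments, whereas the submitters' processing notes list RSEM and not featureCounts. The authors deposited TPM from RSEM, rounded to 2 decimals. Per the submitters' processing notes, versions were cutadapt 1.8.1, STAR 2.7.7a and RSEM 1.3.0. The annotation release was not given in the sources used here, and the labels name an unstranded kit where the methods name a stranded one, so overlapping genes are uncertain.

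Counts were compared with DESeq2 1.42.0 in R 4.3.3, the test named in the study's methods, with group as the only term, a 2-sided Wald test and Benjamini-Hochberg adjustment over all genes. Alternatives used edgeR 4.0.16 and limma 3.58.1 (on TPM). The fits were tested on simulated data. Intervals are 95% from the SE. Floors cover counting error only. Positions and overlaps are from GENCODE 44, which holds 99.4% of the gene identifiers; promoters are from RefSeq.

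The members and lists were chosen with earlier results of these data known. Named genes were every member; listed channel genes called or with a mean TPM of at least 1; overlapping genes with at least 10 counts; the 2 near genes that changed most per member, of which 1 is not reported here; and the 5 genes most like CACNA2D1.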

Additional observations from a re-analysis of the deposited data

How the results depend on the processing

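The titles share replicate numbers. Deviations of same-numbered libraries correlated at -0.058 to 0.029 over 12654 genes, and those of differently numbered libraries at -0.089 to 0.092. No shared effect of a number was seen, which cannot tell whether the numbers mark a pairing. With a replicate block 735 genes were called against 885, and none of the 5 members fitted changed direction. Genes called ranged from 765 to 810 when one library was left out, and were 133, 369 and 126 in limma on log2(TPM + 1), log2(TPM + 0.1) and log2(TPM + 1) without a filter, of which 70, 204 and 66 were higher in T-MGM (624 of 885 by count). In these 3 fits the other calcium channel genes past an adjusted p of 0.05 were 1, 2 and 1 in place of 4 (3 to 4 when one library was left out). Over all genes these fits passed 5514 of 13674, 5508 of 13674 and 4295 of 32158, in place of 7350 of 19135. How many of the listed genes each of them tested was not counted. CACNA2D1 was at 2.0, 4.30 and 2.0, and at 6.89 to 7.73 with one library left out. CACNB1 was at -0.28, -0.45 and -0.28 and CACNB3 at -0.13, -0.15 and -0.13; after GC content and length correction they were at 0.0403 and -0.10. With one library left out they ranged from 0.10 to 0.21 and from -0.05 to 0.09. CACNB4 was at 0.0683 in TPM without a filter and 0.57 to 1.13 with one library left out, and CACNA2D4 ranged from -1.24 to 0.30 there. With counts per kilobase of exon CACNB3 held 72.5% and 70.0% of the beta sum in GFP and T-MGM, CACNB1 26.7% and 28.6% and CACNB4 0.73% and 1.22%. CACNA2D4 and CACNB4 did not pass the TPM filter, nor CACNA2D4 the count filter or that of edgeR. The cause of these shifts was not tested. For genes with under 10 counts in every library a modest change could be missed at this depth, and the size that could be detected was not tested.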
